A study of Mus musculus with 9 samples.

Results

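Mitochondrial fatty acid oxidation and ketone body formation were followed through 34 genes in the RNA of mouse liver lacking O-GlcNAc transferase (OGT), the enzyme that modifies proteins of the nucleus and cytosol with a single sugar, N-acetylglucosamine. The 34 genes were taken as a list of pathway genes with no threshold on their values, but with earlier results of these data known. All 34 were found among the 24421 gene rows of the count files. The OGT-deficient group held 4 livers and the WT group 5 livers of control littermates, on a C57BL/6J background, aged 5 weeks and without food for 6 h. Each library came from whole liver and has its own replicate number, and the stated numbers of mice equal those of libraries. The sources used here do not say how OGT was deleted, in which cells or from what age.

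Fatty acids reach the liver cell through the membrane protein CD36 and are carried in the cytosol by the liver fatty acid binding protein. Acyl-CoA synthetases activate them, and the carnitine palmitoyltransferases pass long chains across the mitochondrial membranes. Inside, acyl-CoA dehydrogenases, hydratases, hydroxyacyl-CoA dehydrogenases and thiolases shorten the chain to acetyl-CoA, and the electrons taken by the dehydrogenases run through the electron transfer flavoprotein and its dehydrogenase to ubiquinone. In the fasted liver much of the acetyl-CoA is turned into ketone bodies for other organs. The nuclear receptor PPAR-alpha switches on many of these genes during fasting.

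Ogt itself, the check on the genotype, averaged 16.9 ± 2.70 CPM in the OGT-deficient and 61.6 ± 10.4 CPM in the WT libraries (SD, n = 4 and 5; log2 fold change -1.86, SE 0.14, adjusted p = 3.53e-07). CPM is the count divided by a library size scaled with the trimmed mean of M-values (TMM), and each adjusted p comes from edgeR's quasi-likelihood test over 14104 genes. Counts assigned to genes ran from 36323832 to 45102080 in the OGT-deficient and from 32337861 to 54130901 in the WT libraries, so that 1 count was worth 0.0191 to 0.0347 CPM. Alignments to more than 1 place, which enter no gene count, numbered 0.205 to 0.224 per counted read in the OGT-deficient and 0.314 to 1.02 in the WT libraries. The study is said to have used both sexes, whereas the Y-linked gene Ddx3y had 55.4 to 60.9 CPM in the OGT-deficient and 77.3 to 91.1 CPM in the WT libraries, and Xist, transcribed from the inactive X chromosome, at most 0.169 CPM in the OGT-deficient and 1.13 CPM in the WT libraries.

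At an adjusted p under 0.05, OGT-deficient liver had more RNA of 8 of the 34 genes and less of 19, and 7 did not pass the threshold. Thus 79.4% of the 34 passed, 23.5% as higher and 55.9% as lower, against 61.1% of all 14104 tested genes, 31.6% as higher and 29.4% as lower. The 34 were abundant genes, with a median level of 213 CPM against 14.9 CPM over all tested genes. The groups did not overlap for 24 of the 34 (70.6%), against 51.3% of all genes. A change of at least 2-fold that passed the test was found for 8 of the 34 (23.5%), against 21.6% of all genes. Cd36, Acss1 and Acad12 rose by that much, and Fabp1, Acsl1, Acsm3, Etfb and Etfdh fell. The median log2 fold change of the 34 was -0.26, against 0.022 over all tested genes, whose median absolute value was 0.45.

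These counts depend on how libraries are scaled, since TMM enlarged the effective size of every OGT-deficient library (factors 1.09 to 1.22) and shrank that of every WT library (factors 0.88 to 0.915). With library totals in place of TMM, the median over all genes moved to 0.36, 78.5% of the calls over all genes were rises (51.8% with TMM), and among the 34 the split was 10 higher and 13 lower, with a median of 0.075. The distance between the 34 and all genes was -0.28 with TMM and -0.29 with library totals. Under library totals Acsm1 and Acsm5 were called higher, and Acadl, Acads, Hadha, Hadhb, Hadh and Echs1 were no longer called lower. The other calls kept their direction and their side of the threshold.

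**Figure D1:**
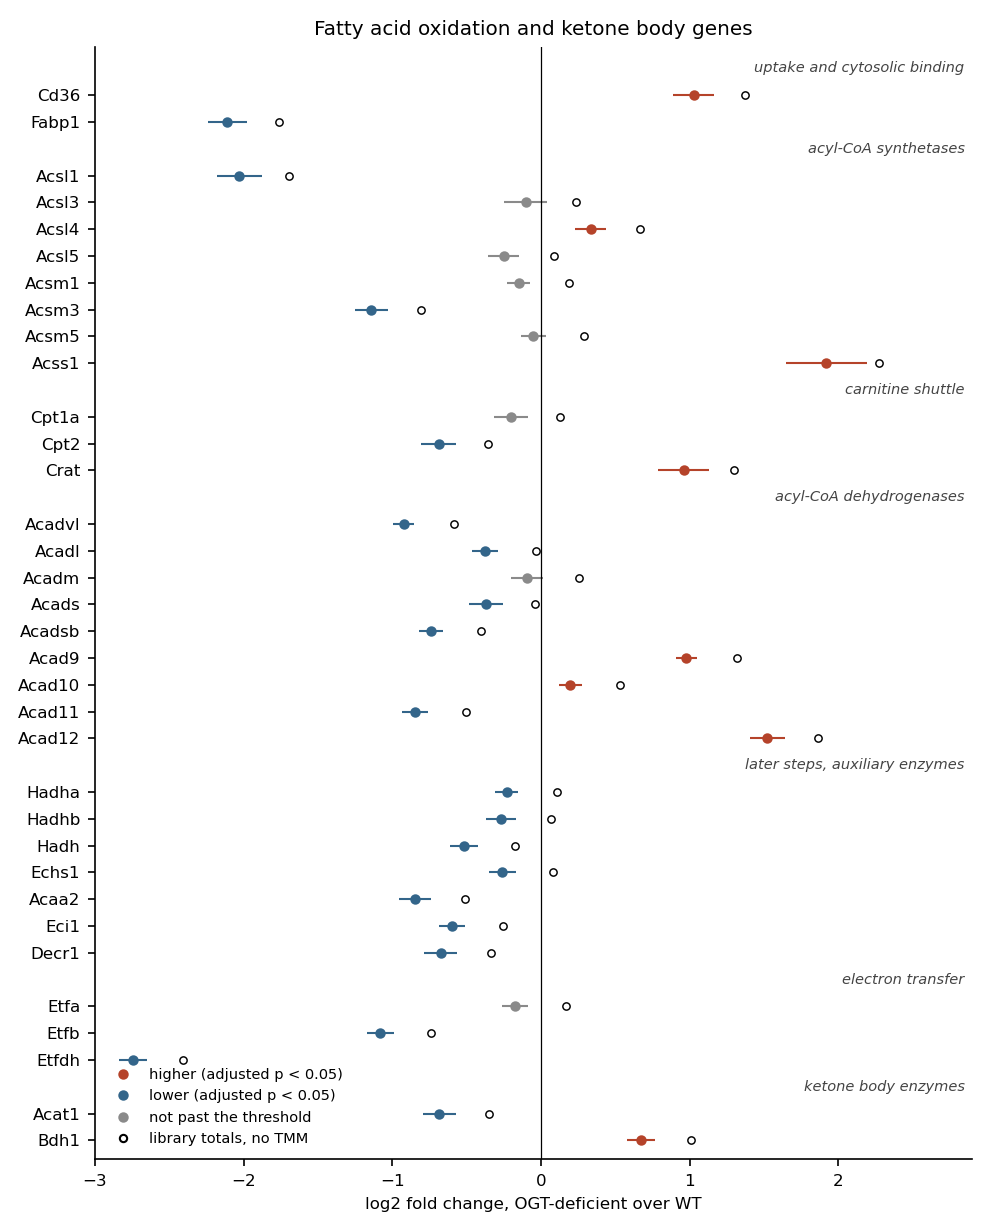
Log2 fold change of each of the 34 genes, OGT-deficient over WT, grouped by role. Filled points with bars are TMM-scaled estimates with their standard errors, coloured by call, and open circles are the estimates with library totals, which lie to the right throughout. Etfdh is farthest to the left at -2.74 and Acss1 farthest to the right at 1.92.

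The genes for uptake and cytosolic binding moved in opposite directions. Cd36, the membrane fatty acid translocase (chr5:17781690-17888801, minus strand), had 73.5, 66.5, 64.7 and 43.9 CPM in OGT-deficient 1 to 4, against 35.1, 31.6, 28.8, 25.7 and 31.1 CPM in WT 1 to 5. All 4 OGT-deficient livers stood above all 5 WT livers, with OGT-deficient 4 nearest to them, and the mean was 2.04-fold higher (log2 fold change 1.03, SE 0.14, adjusted p = 3.43e-05). Fabp1, the liver fatty acid binding protein and a textbook PPAR-alpha target (chr6:71199827-71205023, plus strand), had 890.2, 677, 769 and 864 CPM in OGT-deficient 1 to 4, against 2838, 4054, 3396, 3422 and 3550.5 CPM in WT 1 to 5. No OGT-deficient liver came near the WT range, and the mean was 4.31-fold lower (log2 fold change -2.11, SE 0.13, adjusted p = 7.53e-08). Fabp1 was the most abundant of the 34 per transcript length in both groups, at 3587 ± 532 TPM in OGT-deficient and 11884 ± 1126 TPM in WT livers. TPM here is the count divided by the length of the longest annotated transcript and scaled to the same total in each library, with no TMM factor. Fabp1 made up 34.9 ± 3.28% of the summed TPM of the 34 in OGT-deficient and 61.4 ± 2.0996% in WT livers, and without it the sum was 6652 ± 86.9 TPM in OGT-deficient and 7430.4 ± 256 TPM in WT livers (SD, n = 4 and 5), with no overlap.

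Promoter windows from RefSeq (GRCm38.p6, 250 bases before to 50 after each start site) were found for 29 of the 34 genes, in 31 windows. They were searched on both strands for the element that PPAR-alpha and its partner RXR bind, the half-site AGGTCA repeated with 1 base between, counting mismatches over the 12 half-site bases. With at most 1 mismatch it was in 1 of 31 windows (3.23%), that of Fabp1, against 0.554% of 32851 windows of all genes, and with at most 2 in 4 windows (12.9%), those of Fabp1, Cd36, Echs1 and Etfa, against 3.86%. The stretches around these matches are given 5′ to 3′ on the strand of each gene, cut back to bases outside annotated exons. They are shown because they are the closest letter matches in the set and lie before RefSeq start sites of genes that differed in their response. The Cd36 stretch lies inside the gene span given above, before an internal start site, and the use of that site in these livers was not tested. None of the 31 windows held the element without a mismatch, so these are loose matches of differing sequence, with 1 mismatch in Fabp1 and 2 in Cd36, Echs1 and Etfa. Capitals mark the match, which in Fabp1, Cd36 and Etfa reads on the opposite strand.
Fabp1, chr6:71199752-71199826, plus strand: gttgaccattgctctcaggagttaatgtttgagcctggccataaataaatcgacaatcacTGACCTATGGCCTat
Cd36, chr5:17835897-17836019, minus strand: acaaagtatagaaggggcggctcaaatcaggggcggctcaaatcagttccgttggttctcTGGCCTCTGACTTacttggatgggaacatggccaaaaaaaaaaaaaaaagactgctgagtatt
Echs1, chr7:140116477-140116564, minus strand: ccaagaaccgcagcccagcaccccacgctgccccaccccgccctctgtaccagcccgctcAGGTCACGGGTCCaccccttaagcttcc
Etfa, chr9:55512248-55512380, minus strand: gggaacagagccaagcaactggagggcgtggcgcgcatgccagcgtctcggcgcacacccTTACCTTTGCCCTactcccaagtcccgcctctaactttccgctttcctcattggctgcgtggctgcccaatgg
The match began 67 bases before the RefSeq start site in Fabp1, 63 in Cd36, 83 in Echs1 and 77 in Etfa. These start sites can differ from the ends of the gene spans given for GENCODE. The log2 fold changes of these genes were -2.11, 1.03, -0.26 and -0.17 in that order, so the windows with a match belonged to a gene that fell strongly, one that rose, one that was lower with TMM but not with library totals, and one that did not pass the test. The letters TATAAA, searched on both strands, were in the Fabp1 window only (3.23% of windows, against 13.6% of all genes), and the E-box letters CACGTG in the Acsm5 window only (3.23% against 7.15%). The median GC content of the windows was 60.7%, against 52.7% over all genes.

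Of the 8 acyl-CoA synthetases, which activate fatty acids, 2 rose, 2 fell and 4 did not pass the test. Acsl1, the main long-chain synthetase of liver and adipose tissue (chr8:46471037-46536051, plus strand), had 238, 413, 351 and 305 CPM in OGT-deficient 1 to 4, against 1447, 1423, 1136, 1328 and 1333 CPM in WT 1 to 5. Every OGT-deficient liver lay far below every WT liver, and the mean was 4.08-fold lower (log2 fold change -2.03, SE 0.15, adjusted p = 3.13e-07). Acsm3, a medium-chain synthetase of the mitochondrial matrix, had 33.7, 41.2, 33.6 and 46.6 CPM in the OGT-deficient and 73.9, 87.7, 83.5, 91.8 and 90.4 CPM in the WT libraries, with no overlap (log2 fold change -1.14, SE 0.11, adjusted p = 2.86e-06). Its value is uncertain, because 39.7% of its exonic bases also belong to the neighbouring gene Eri2 in GENCODE and reads that overlap both genes may be missing from its count.

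The other long-chain synthetases had smaller differences than Acsl1. Acsl4, which prefers arachidonic acid, was slightly higher, at 82.1 ± 13.5 CPM in OGT-deficient and 65.0 ± 4.08 CPM in WT livers (log2 fold change 0.34, SE 0.10, adjusted p = 0.0136), but it missed the threshold without OGT-deficient 2 (0.22, adjusted p = 0.0688) and without OGT-deficient 4 (0.28, adjusted p = 0.0503). Acsl5, found on mitochondria and the endoplasmic reticulum, averaged 281 ± 31.7 CPM in OGT-deficient and 334 ± 38.9 CPM in WT livers and did not pass (log2 fold change -0.25, SE 0.11, adjusted p = 0.0560), although it did without OGT-deficient 4 (-0.36, adjusted p = 0.0115), without WT 4 (-0.29, 0.0442) and without WT 5 (-0.29, 0.0410). With every library kept, the DESeq2 Wald test called Acsl5 lower (-0.25, adjusted p = 0.0406). TMM without the 30 most abundant genes did so too (-0.27, adjusted p = 0.0449), whereas library totals gave 0.087 (adjusted p = 0.441). Acsl3, an enzyme of lipid droplets, averaged 23.0 ± 2.30 CPM in OGT-deficient and 24.8 ± 5.75 CPM in WT livers (log2 fold change -0.10, adjusted p = 0.548). The make-up of the 4 Acsl transcripts within a library differed accordingly. Acsl1 held 34.2, 45.1, 43.2 and 34.9% of their summed TPM in OGT-deficient 1 to 4, against 70.8, 70.2, 67.9, 71.6 and 72.8% in WT 1 to 5. Acsl5 held 45.9 ± 5.39% of the sum in OGT-deficient and 23.7 ± 1.90% in WT livers, and Acsl4 10.7 ± 1.002% in OGT-deficient and 3.74 ± 0.515% in WT livers (SD, n = 4 and 5). Acsl5 held more than Acsl1 in OGT-deficient 1 and 4, the shares were close in OGT-deficient 3, and Acsl1 held more in OGT-deficient 2 and in every WT liver. No share overlapped between the groups.

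**Figure D2:**
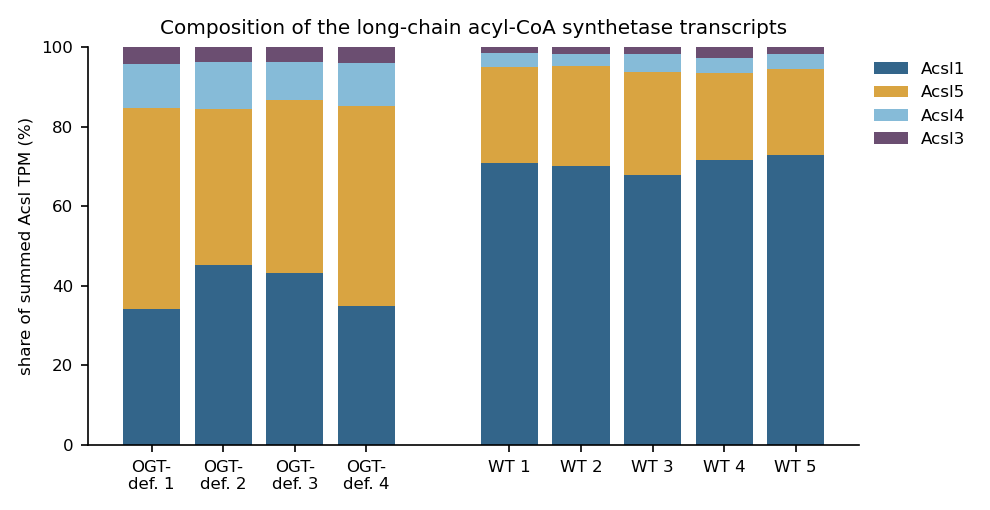
Share of the summed TPM of Acsl1, Acsl5, Acsl4 and Acsl3 held by each gene, as stacked bars that add up to 100% in each library, OGT-deficient 1 to 4 at the left and WT 1 to 5 at the right. Acsl1 fills 34.2 to 45.1% of the OGT-deficient bars and 67.9 to 72.8% of the WT bars.

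The medium-chain synthetases Acsm1 and Acsm5, which lie with Acsm3 on chromosome 7, averaged 404 ± 14.1 and 167 ± 11.995 CPM in OGT-deficient livers, against 448 ± 26.6 and 173 ± 14.3 CPM in WT livers, and neither passed the test with TMM (log2 fold changes -0.15 and -0.051, adjusted p = 0.113 and 0.616). Acss1, the mitochondrial acetyl-CoA synthetase, was the scarcest of the 34 and had 3.84, 2.17, 2.65 and 1.81 CPM in OGT-deficient 1 to 4, against 0.919, 0.630, 0.617, 0.451 and 0.805 CPM in WT 1 to 5. These levels rest on 74 to 182 reads per OGT-deficient library and 13 to 43 per WT library, and the groups did not overlap (log2 fold change 1.92, SE 0.27, adjusted p = 6.06e-05).

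Of the 3 carnitine acyltransferases, 1 rose, 1 fell and 1 did not pass the test. Cpt1a, the liver enzyme of the outer mitochondrial membrane that controls the entry of long chains, had 549.9, 771, 551 and 669 CPM in OGT-deficient 1 to 4, against 773, 689.7, 677, 784 and 727 CPM in WT 1 to 5. OGT-deficient 2 lay inside the WT range and the other 3 below it, so the groups overlapped (log2 fold change -0.20, SE 0.11, adjusted p = 0.137). Without OGT-deficient 2 the difference passed, at -0.32 (adjusted p = 0.0227), while with library totals the estimate was 0.13 (adjusted p = 0.240).

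Cpt2, its partner on the inner membrane, had 64.6, 87.3, 75.3 and 88.4 CPM in the OGT-deficient and 109, 134, 111, 135 and 145 CPM in the WT libraries. All OGT-deficient values were below all WT values (log2 fold change -0.69, SE 0.12, adjusted p = 2.62e-04). The ratio of Cpt1a to Cpt2 in TPM was 4.68, 4.85, 4.02 and 4.16 in OGT-deficient 1 to 4, against 3.89, 2.83, 3.34, 3.18 and 2.76 in WT 1 to 5, with no overlap. Crat, the carnitine acetyltransferase that acts on acetyl and other short acyl groups, had 39.0, 41.9, 49.5 and 54.0 CPM in OGT-deficient 1 to 4, against 21.3, 25.3, 15.2, 32.4 and 24.5 CPM in WT 1 to 5, and was higher in every OGT-deficient liver (log2 fold change 0.96, SE 0.17, adjusted p = 4.08e-04).

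The 9 acyl-CoA dehydrogenases, which carry out the first step of each round of beta-oxidation, had 3 members higher, 5 lower and 1 not past the threshold. Acadvl, the enzyme for very long chains, had 287, 295, 297 and 299 CPM in OGT-deficient 1 to 4, against 559, 570.3, 542, 565 and 557 CPM in WT 1 to 5. The livers within each group were almost alike and the groups lay far apart (log2 fold change -0.92, SE 0.071, adjusted p = 4.22e-07). In GENCODE 42.9% of the exonic bases of Acadvl also belong to Dvl2 on the other strand, so its count is uncertain where such reads were set aside. Acadl for long chains and Acads for short chains were lower with log2 fold changes of -0.37 and -0.37 (adjusted p = 0.00283 and 0.0150), and neither passed when library totals replaced TMM (-0.033 and -0.037, adjusted p = 0.754 and 0.747). Acads also missed the threshold with upper-quartile factors (-0.25, adjusted p = 0.0644).

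Acadm, the medium-chain enzyme whose loss is a common inborn error of fat oxidation, had 356, 274, 321 and 326 CPM in OGT-deficient 1 to 4, against 303, 385, 295, 336 and 381 CPM in WT 1 to 5. The groups lay over each other, and it did not pass with either scaling (log2 fold change -0.091, SE 0.11, adjusted p = 0.481; 0.26 and adjusted p = 0.0658 with library totals). Acadsb, which oxidizes short branched acyl-CoA from isoleucine, and Acad11, a less studied member of the family, were lower by 1.67-fold and 1.80-fold, at 106 ± 3.09 and 215 ± 6.22 CPM in OGT-deficient livers, against 177 ± 14.1 and 387 ± 36.9 CPM in WT livers (adjusted p = 5.85e-06 and 4.51e-06).

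Acad9, a dehydrogenase that also serves the assembly of respiratory complex I (chr3:36065979-36092853, plus strand), moved the other way, with 75.7, 71.8, 66.7 and 73.2 CPM in OGT-deficient 1 to 4, against 37.3, 36.5, 36.4, 34.1 and 38.03 CPM in WT 1 to 5. Each OGT-deficient liver exceeded each WT liver by a wide margin (log2 fold change 0.98, SE 0.070, adjusted p = 2.37e-07). Acad12 was 2.88-fold higher, at 27.3 ± 1.86 CPM in OGT-deficient and 9.50 ± 1.69 CPM in WT livers (adjusted p = 5.09e-07). Its neighbour Acad10 on chromosome 5 averaged 41.5 ± 3.36 CPM in OGT-deficient and 36.2 ± 1.66 CPM in WT livers, the groups overlapped, and its call (log2 fold change 0.20, adjusted p = 0.0406) was lost when any of WT 2 to 5 or OGT-deficient 2 to 4 was left out, with adjusted p up to 0.155 (log2 fold change 0.15, without OGT-deficient 2). Acad10 and Acad12 share 18.6% and 20.7% of their transcripts' 50-base stretches with other listed genes, mainly each other, so both values are uncertain.

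The 7 genes of the later steps were all called lower with TMM, but by less than 2-fold in each case, and only Acaa2, Eci1 and Decr1 were called lower with library totals. Acaa2, the medium- and long-chain thiolase of the matrix and the most abundant of these 7 per transcript length, had 471, 589, 507 and 639 CPM in OGT-deficient 1 to 4, against 939, 1085, 939, 996 and 998 CPM in WT 1 to 5. No OGT-deficient liver reached the lowest WT liver (log2 fold change -0.85, SE 0.10, adjusted p = 1.96e-05). Eci1, the enoyl-CoA isomerase that prepares unsaturated chains, had 99.7, 94.1, 103 and 101 CPM in the OGT-deficient and 137, 172, 136, 149 and 157 CPM in the WT libraries, again with no overlap (log2 fold change -0.60, SE 0.086, adjusted p = 6.77e-05). Decr1, the dienoyl-CoA reductase for polyunsaturated chains, was 1.59-fold lower (log2 fold change -0.67, adjusted p = 1.91e-04), and Hadh, the short-chain hydroxyacyl-CoA dehydrogenase, 1.43-fold lower (-0.52, adjusted p = 4.85e-04).

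Hadha and Hadhb encode the alpha and beta subunits of the mitochondrial trifunctional protein, which carries out the last steps on long chains. Hadha had 404, 427, 415 and 421 CPM in OGT-deficient 1 to 4, against 484, 510.4, 447, 499 and 505 CPM in WT 1 to 5. The OGT-deficient livers lay just below the WT livers without overlap (log2 fold change -0.23, SE 0.075, adjusted p = 0.0179). The estimate was 0.11 with library totals (adjusted p = 0.189), so no direction can be given for Hadha apart from the scaling. Hadhb averaged 203 ± 17.1 CPM in OGT-deficient and 244 ± 30.1 CPM in WT livers, and Echs1, the short-chain enoyl-CoA hydratase, 227 ± 16.7 CPM in OGT-deficient and 271 ± 27.7 CPM in WT livers. Both overlapped between the groups and were close to the threshold (log2 fold changes -0.27 and -0.26, adjusted p = 0.0371 and 0.0283). Hadhb missed it when WT 2, 4 or 5 or OGT-deficient 1 or 3 was left out (-0.20, -0.27, -0.24, -0.24 and -0.24), and Echs1 when WT 2 or 5 or OGT-deficient 3 was left out (-0.20, -0.25 and -0.23). Like Hadha, both had estimates above 0 with library totals (0.071 and 0.080, adjusted p = 0.490 and 0.401). With upper-quartile factors Hadha, Hadhb and Echs1 were not called either (-0.11, -0.15 and -0.14, adjusted p = 0.213, 0.220 and 0.204).

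The subunit genes stand head to head on chromosome 5, Hadha at chr5:30118304-30155162 on the minus strand and Hadhb at chr5:30155248-30184593 on the plus strand in GENCODE, with 85 bases between them. This stretch is shown because it is upstream of both genes, whose level ratio follows. It is read on the plus strand, 5′ toward Hadha and 3′ toward Hadhb, from the RefSeq window of Hadhb, with each GGGCGG in capitals.
Hadha to Hadhb, chr5:30155163-30155247: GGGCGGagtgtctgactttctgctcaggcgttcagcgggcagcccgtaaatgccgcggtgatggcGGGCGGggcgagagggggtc
The GC-box letters GGGCGG, searched on both strands, were in 19 of the 31 windows of the set (61.3%), against 35.7% of all windows. The ratio of Hadha to Hadhb in TPM was 2.36, 2.19, 2.38 and 2.07 in OGT-deficient 1 to 4, against 2.37, 1.94, 2.30, 2.28 and 2.12 in WT 1 to 5. The groups covered the same range, so a difference in this ratio was not larger than the spread between livers. The absolute value of such a ratio depends on which transcript length is used, but its comparison between libraries does not.

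The largest fall of the set was in the electron transfer step. Etfdh, the ubiquinone oxidoreductase of the inner membrane through which the electrons of every acyl-CoA dehydrogenase pass (chr3:79603788-79629500, minus strand), had 37.3, 44.3, 41.9 and 44.7 CPM in OGT-deficient 1 to 4, against 292, 293, 246, 281 and 296 CPM in WT 1 to 5. The 4 OGT-deficient livers were close to each other and far below the lowest WT liver, WT 3, and the mean was 6.69-fold lower (log2 fold change -2.74, SE 0.094, adjusted p = 1.10e-09). Over every alternative setting its log2 fold change stayed between -2.80 and -2.41. Etfb, the beta subunit of the flavoprotein, had 155, 153, 179 and 176 CPM in OGT-deficient 1 to 4, against 328, 395, 363, 325 and 343 CPM in WT 1 to 5, again without overlap (log2 fold change -1.08, SE 0.090, adjusted p = 8.48e-07). Etfa, the alpha subunit, averaged 415 ± 24.5 CPM in OGT-deficient and 468 ± 35.1 CPM in WT livers, overlapped between the groups and did not pass (log2 fold change -0.17, SE 0.085, adjusted p = 0.0911), except without OGT-deficient 1 (-0.23, adjusted p = 0.0369).

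Etfa and Etfb pair in a single flavoprotein, and their balance differed between the groups in a way that no scaling of libraries can change. The TPM ratio of Etfa to Etfb was 1.86, 1.65, 1.48 and 1.46 in OGT-deficient 1 to 4, against 0.822, 0.832, 0.830, 0.892 and 0.911 in WT 1 to 5. For Etfdh to Etfa it was 0.0309, 0.0417, 0.0376 and 0.0415 in OGT-deficient 1 to 4, against 0.259, 0.213, 0.195, 0.231 and 0.226 in WT 1 to 5. Neither ratio overlapped, and the last shows the fall of Etfdh relative to a gene of the same step.

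**Figure D3:**
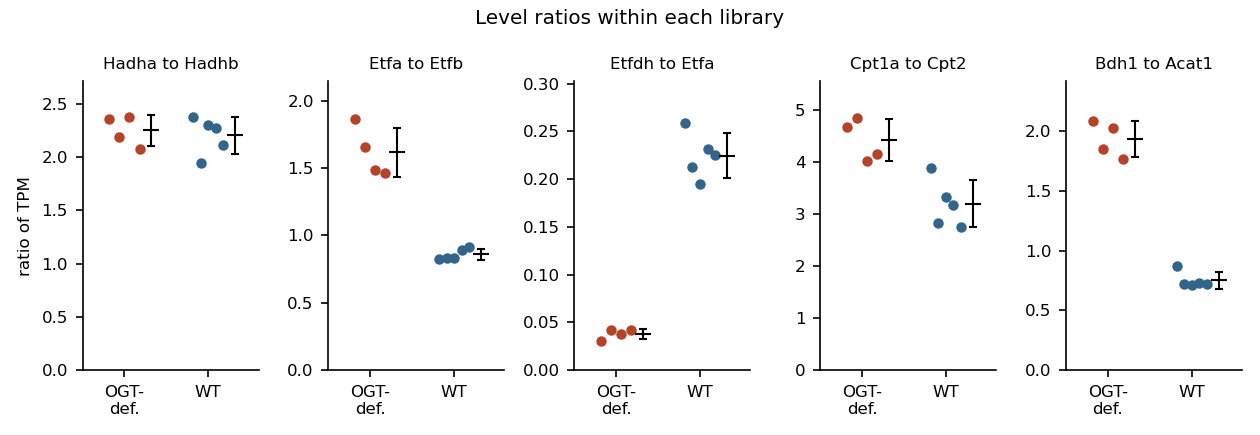
Ratio of TPM of 5 gene pairs in each library, OGT-deficient left of WT in each panel, with axes from 0. Points are livers, and the dash with a bar gives the mean and SD. Hadha to Hadhb covers the same range in both groups, whereas the other 4 ratios do not overlap, with Etfdh to Etfa at 0.0309 to 0.0417 in OGT-deficient and 0.195 to 0.259 in WT livers.

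The ketone body enzymes of the set diverged. Acat1, the acetoacetyl-CoA thiolase at the entry of the pathway, had 242, 344, 272 and 317 CPM in OGT-deficient 1 to 4, against 442, 536, 453, 444 and 481 CPM in WT 1 to 5, with no overlap (log2 fold change -0.68, SE 0.11, adjusted p = 1.80e-04). Bdh1, which reduces acetoacetate to 3-hydroxybutyrate (chr16:31422280-31458901, plus strand), had 469.6, 592, 511 and 520.3 CPM in OGT-deficient 1 to 4, against 359.5, 360.0, 299, 301 and 322 CPM in WT 1 to 5. The lowest OGT-deficient liver exceeded the highest WT liver, and the mean was 1.59-fold higher (log2 fold change 0.67, SE 0.095, adjusted p = 6.12e-05). The TPM ratio of Bdh1 to Acat1 was 1.93 ± 0.149 in OGT-deficient and 0.751 ± 0.0695 in WT livers (SD, n = 4 and 5), with no overlap.

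**Figure D4:**
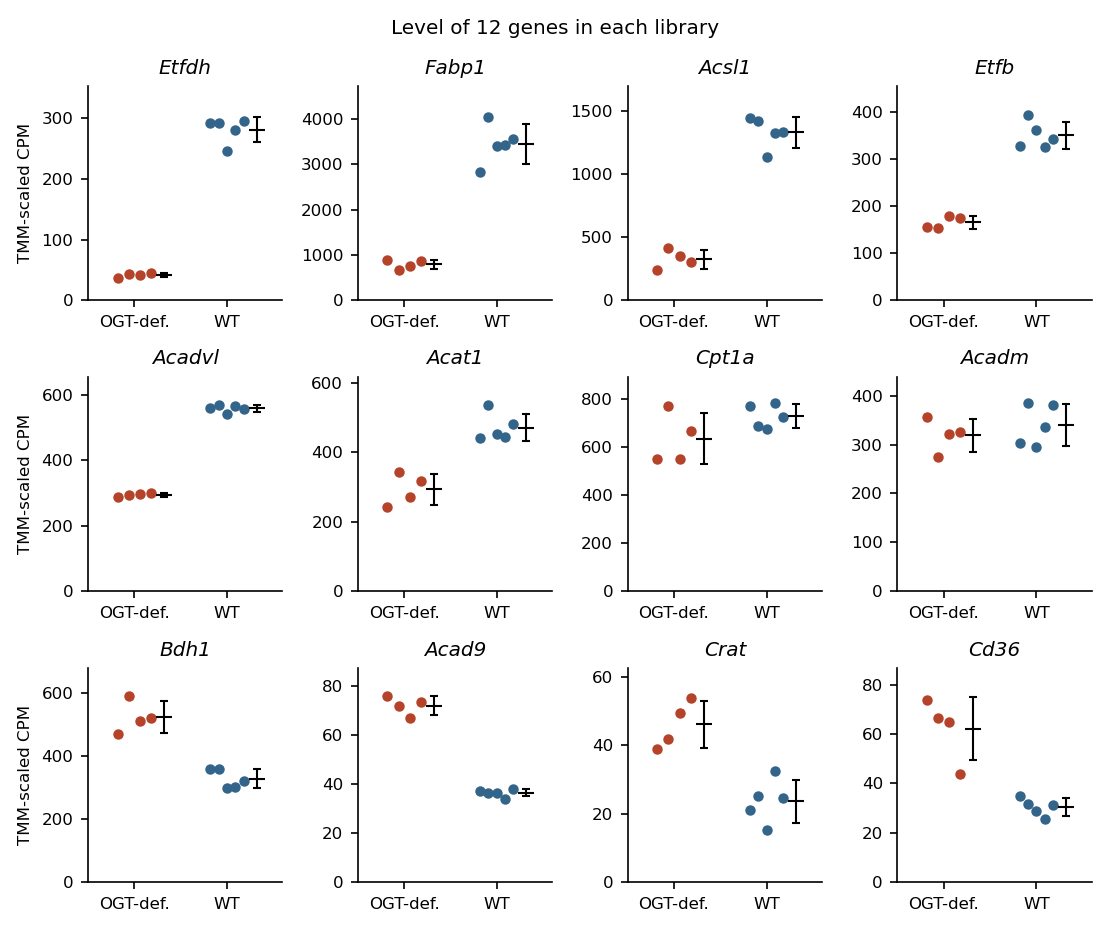
TMM-scaled CPM of 12 of the genes in each library, OGT-deficient left of WT in each panel, with axes from 0. Points are livers, and the dash with a bar gives the mean and SD. The groups are apart for 10 genes, and overlap for Cpt1a and Acadm.

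Per transcript length, Fabp1 and then Acaa2 had the highest mean level of the 34 in both groups. In OGT-deficient livers they were followed by Etfa (739.9 ± 83.1 TPM), Acsm1 (480.4 ± 34.4 TPM), Etfb (459.6 ± 38.7 TPM) and Bdh1 (409 ± 30.2 TPM), and the ranges of Acaa2 and Etfa overlapped, as did those of Acsm1, Etfb and Bdh1 from place to place. In WT livers the order after Acaa2 was Etfb (749 ± 47.7 TPM), Etfa (641 ± 31.0 TPM), Acadvl (492 ± 14.5 TPM) and Acsl1 (449 ± 45.1 TPM), of which Acadvl and Acsl1 overlapped. By rank, Bdh1 stood 6 in OGT-deficient and 15 in WT livers, Acsl1 stood 18 in OGT-deficient and 6 in WT livers, and Etfdh stood 29 in OGT-deficient and 20 in WT livers. Within groups the SD ran from 1.75% of the mean in Acadvl to 33.7% in Acss1 among OGT-deficient livers, and from 1.90% in Acadvl to 26.5% in Acss1 among WT livers. The highest OGT-deficient level was in OGT-deficient 4 for 13 of the 34 genes, and the highest WT level was in WT 2 for 18 of the 34.

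Genes around the set were followed in lists drawn from the same pathways. Of 8 tested genes of the carnitine shuttle and of the malonyl-CoA that inhibits Cpt1a, 3 were higher and 5 lower, with the same split under library totals. The higher ones were the carboxylases Acaca and Acacb, described below, and Cpt1c. Cpt1c was scarce, at 1.51 ± 0.534 CPM in OGT-deficient and 0.594 ± 0.0681 CPM in WT livers. Mlycd, the decarboxylase that removes the Cpt1a inhibitor malonyl-CoA, averaged 68.5 ± 9.50 CPM in OGT-deficient and 172 ± 14.7 CPM in WT livers (log2 fold change -1.33, SE 0.11, adjusted p = 6.19e-07). Acaca, the carboxylase that makes malonyl-CoA, averaged 281 ± 17.0 CPM in OGT-deficient and 157 ± 15.5 CPM in WT livers (log2 fold change 0.84, SE 0.088, adjusted p = 5.38e-06). The groups did not overlap for Mlycd or Acaca RNA. Acacb, a second carboxylase that makes malonyl-CoA, was higher with overlap (log2 fold change 0.52, SE 0.16, adjusted p = 0.0126). Slc25a20, the carnitine-acylcarnitine carrier of the inner membrane, and Slc22a5, the carnitine transporter of the cell surface, were lower (log2 fold changes -0.82 and -1.01, adjusted p = 3.37e-05 and 4.08e-05), and the Slc22a5 value is uncertain because 27.1% of its 50-base stretches also occur in other listed genes.

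Of 13 tested genes of uptake and activation outside the set, 3 were higher, 6 lower and 4 not past the threshold with TMM, and 6 were higher and 5 lower with library totals. The transporters and synthetases Slc27a5 and Slc27a2, which act on bile acids and very long chains, averaged 465 ± 58.4 and 674 ± 109.9 CPM in OGT-deficient livers, against 1101 ± 46.8 and 1685 ± 156 CPM in WT livers (adjusted p = 6.10e-07 and 2.08e-06). Acss2, the cytosolic acetyl-CoA synthetase, was lower by 2.75-fold (adjusted p = 1.33e-06), in the direction opposite to its mitochondrial relative Acss1, and Acsf2, another acyl-CoA synthetase of mitochondria, by 1.75-fold (adjusted p = 8.00e-06).

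A further list held mitochondrial enzymes of other acyl-CoA, mainly from branched-chain amino acids, lysine and propionate. Of 12 tested, 9 were lower, 1 higher and 2 not past the threshold, their median being -1.10 (log2 fold change), and 9 were lower and 2 higher with library totals. Pccb, the beta subunit of propionyl-CoA carboxylase, averaged 102 ± 2.58 CPM in OGT-deficient and 335 ± 17.8 CPM in WT livers (log2 fold change -1.71, SE 0.076, adjusted p = 6.21e-09). Mut, the methylmalonyl-CoA mutase that follows it, averaged 95.8 ± 6.46 CPM in OGT-deficient and 213 ± 14.1 CPM in WT livers (log2 fold change -1.15, SE 0.082, adjusted p = 2.37e-07). The acyl-CoA dehydrogenases of lysine and valine breakdown, Gcdh and Acad8, were lower by 3.04-fold and 2.06-fold (adjusted p = 6.79e-08 and 1.91e-07).

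Around Bdh1 and Acat1, 8 further ketone body genes were tested, of which 3 were higher, 3 lower and 2 not past the threshold with TMM (median log2 fold change -0.096), and 4 were higher, 1 lower and 3 not past it with library totals (median 0.24). Bdh2, a cytosolic dehydrogenase named for its likeness to Bdh1, was lower at 2.65 ± 0.342 CPM in OGT-deficient and 11.3 ± 2.88 CPM in WT livers (log2 fold change -2.08, SE 0.19, adjusted p = 2.03e-06). Oxct1, the enzyme that lets tissues other than liver burn ketone bodies, averaged 10.4 ± 2.06 CPM in OGT-deficient and 4.63 ± 0.357 CPM in WT livers (log2 fold change 1.16, SE 0.14, adjusted p = 1.65e-05), and 12.6% of its exonic bases also belong to another listed gene. Slc16a1, a monocarboxylate transporter that carries ketone bodies, averaged 75.9 ± 7.11 CPM in OGT-deficient and 39.3 ± 7.38 CPM in WT livers (log2 fold change 0.95, SE 0.13, adjusted p = 3.80e-05).

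Among 18 regulators 2 were higher, 9 lower and 7 not past the threshold with TMM, and 6 were higher and 6 lower with library totals. Ppara averaged 228 ± 14.8 CPM in OGT-deficient and 405 ± 36.2 CPM in WT livers (log2 fold change -0.83, SE 0.090, adjusted p = 6.49e-06), while Pparg, its relative best known from fat cells, averaged 18.2 ± 2.81 CPM in OGT-deficient and 5.21 ± 0.376 CPM in WT livers (log2 fold change 1.80, SE 0.12, adjusted p = 1.13e-07). Esrra, a nuclear receptor of mitochondrial genes, and Sirt3, the mitochondrial deacetylase, were lower (log2 fold changes -1.07 and -0.77, adjusted p = 2.44e-07 and 2.49e-06). Ppargc1a, the coactivator of both pathways, averaged 14.3 ± 2.43 CPM in OGT-deficient and 9.97 ± 2.75 CPM in WT livers with overlap (log2 fold change 0.52, SE 0.18, adjusted p = 0.0229), and missed the threshold without WT 2, 3 or 5 or OGT-deficient 2 (0.45, 0.45, 0.48 and 0.39).

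Of 24 PPAR-alpha targets outside the set, 4 were higher, 16 lower and 4 not past the threshold, and 5 were higher and 15 lower with library totals. This list overlaps the lists above, sharing among others Slc25a20, Slc22a5 and Creb3l3 with them. Ehhadh, the bifunctional enzyme of peroxisomal beta-oxidation, averaged 63.3 ± 3.18 CPM in OGT-deficient and 297 ± 45.8 CPM in WT livers (log2 fold change -2.23, SE 0.11, adjusted p = 1.89e-08). Cyp4a32, a fatty acid hydroxylase, fell further (log2 fold change -4.63, SE 0.23, adjusted p = 1.74e-08), but 46.8% of its 50-base stretches also occur in Cyp4a10 and Cyp4a31. The 4 genes of the list that were higher were Pdk4, Fgf21, Cidec and Ucp2. Ucp2 is an uncoupling protein homologue of the mitochondrial inner membrane (log2 fold change 0.76, SE 0.11, adjusted p = 7.26e-05). Pdk4, the kinase that closes pyruvate dehydrogenase during fasting, had 13.05, 6.91, 10.7 and 9.18 CPM in OGT-deficient 1 to 4, against 4.08, 2.02, 2.83, 2.43 and 3.43 CPM in WT 1 to 5 (log2 fold change 1.75, SE 0.22, adjusted p = 2.25e-05). Larger rises were in the hormone gene Fgf21 (log2 fold change 3.91, SE 0.31, adjusted p = 5.45e-07) and the lipid droplet gene Cidec (log2 fold change 3.64, SE 0.25, adjusted p = 1.72e-07). Which factors drove the rises and falls of this list was not tested.

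**Figure D5:**
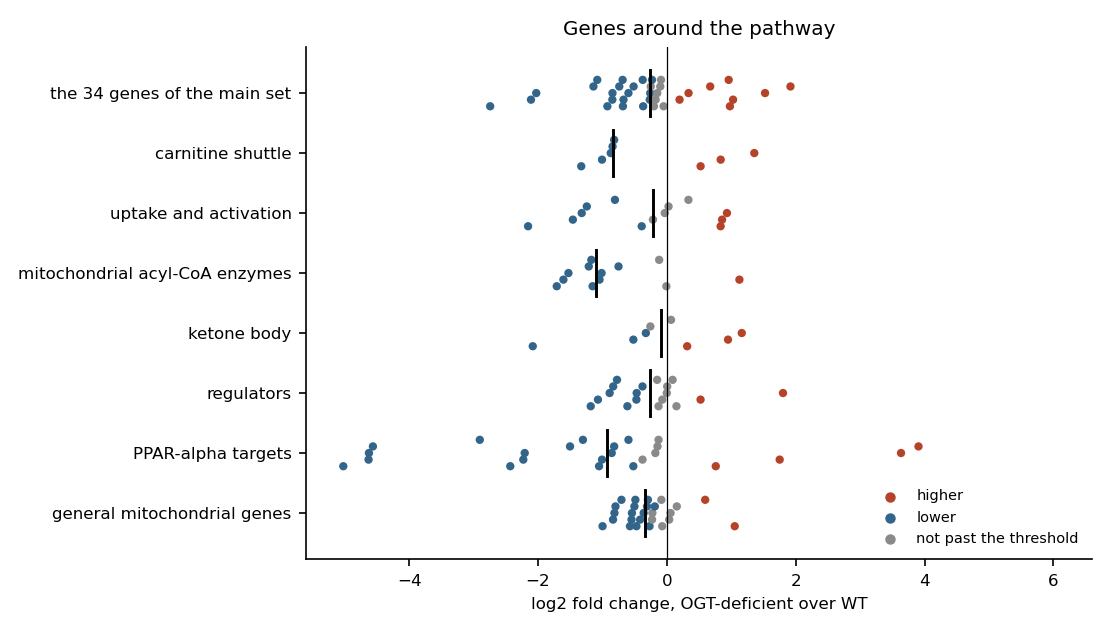
Log2 fold change, OGT-deficient over WT with TMM, of each tested gene of the set of 34 and of 7 lists around it. Points are genes coloured by call, and the black bar is the median of the list. The medians run from -1.10 for the mitochondrial acyl-CoA enzymes to -0.10 for the ketone body genes, and Fgf21 and Cidec lie farthest to the right.

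Mitochondrial genes outside fat oxidation gave the background for the organelle: 17 of 26 were lower, 2 higher and 7 not past the threshold with TMM, with a median of -0.33, close to the -0.26 of the 34. With library totals 7 were lower and 7 higher, with a median of 0.0037. Phb, Tomm40 and Idh3a, of the prohibitin ring, the import pore and the citric acid cycle, had log2 fold changes of -0.998, -0.80 and -0.84 (adjusted p = 3.73e-06, 3.73e-06 and 1.03e-05). The Phb value is uncertain, because 16.6% of its 50-base stretches also occur in the listed gene Fyb. Lonp1, the matrix protease, averaged 453 ± 18.9 CPM in OGT-deficient and 218 ± 14.5 CPM in WT livers (log2 fold change 1.05, SE 0.078, adjusted p = 3.13e-07).

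Markers of other liver cell types differed with the genotype. In whole-liver RNA fewer cells of a type and less RNA per cell cannot be told apart. Alb, the albumin gene of hepatocytes, averaged 33491 ± 3673 CPM in OGT-deficient and 73880.2 ± 9066 CPM in WT livers (log2 fold change -1.14, SE 0.16, adjusted p = 4.50e-05). Of the 10 hepatocyte markers 9 were tested, of which 7 were lower and 2 not past the threshold (median log2 fold change -1.14, summed level 46719 to 58677 CPM in OGT-deficient and 99125 to 117305 CPM in WT livers). The untested marker, Ass1, had only 2 to 12 reads per library. Bile duct markers were higher in 7 of 7 (median 3.33, summed level 148 to 257 CPM in OGT-deficient and 31.4 to 60.2 CPM in WT livers), and stellate and myofibroblast markers in 9 of 9 (median 1.93, summed level 846 to 1244 CPM in OGT-deficient and 155 to 382 CPM in WT livers). Macrophage markers were higher in 7 of 10 and lower in 1 (median 0.99, summed level 277 to 427 CPM in OGT-deficient and 233 to 329 CPM in WT livers). Endothelial markers were higher in 1 and lower in 2 of 6, at 192 to 362 CPM in OGT-deficient and 306 to 426 CPM in WT livers. Of the 3 neutrophil markers 2 were tested and both were higher, but the groups overlapped. Their summed level was 1.66 to 6.67 CPM in OGT-deficient and 1.37 to 3.65 CPM in WT livers. Of 4 T and NK cell markers 1 was lower, and of 3 B cell markers none passed. The adipocyte markers Adipoq, Plin1, Cfd and Lep together stayed at or under 0.209 CPM in every library. The part of cell make-up in the falls of Fabp1, Acsl1 and Etfdh and in the rise of Cd36 was not tested. The tested hepatocyte markers themselves had log2 fold changes from -1.34 to -0.043, so none of them alone, Alb included, measures the share of hepatocytes.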

How the data were processed

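RNA sequencing of whole liver gave 4 OGT-deficient and 5 WT libraries, grouped by the genotype in the labels. The submitters' processing notes name TopHat2 2.1.0, HTSeq 0.9.1 and the build mm10 (GRCm38), and the authors deposited raw read counts per gene symbol for each library. The sources used here give neither the annotation release nor the use of strand. Summary lines of the count files (reads outside genes 8.95 to 10.7%, reads over several genes 1.78 to 2.17%) stayed out of library sizes and tests.

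The test was edgeR's quasi-likelihood test (edgeR 4.0.16 in R 4.3.3, filterByExpr, TMM, glmQLFit, glmQLFTest) with group as the only term. P-values were adjusted by Benjamini-Hochberg over the 14104 genes left by the filter, with a threshold of 0.05. A prior count enters the fitted log2 fold changes. Within groups 16 pairs of libraries differed beyond sampling noise (chi-square per degree of freedom 23.9 to 135). The p-values measure the spread between these libraries only.

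TPM used the longest GENCODE M21 transcript of each gene, so the order of levels between genes depends on that choice, and 23376 of 24421 symbols matched it directly. Sharing was measured as 50-base stretches of that transcript found in other listed genes, and as exonic bases covered by them on either strand. Coordinates are 1-based. Promoters are from RefSeq.

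Members and lists were chosen with earlier results of these data known, and no list was tested as a set. Values per library are given for the 2 genes with the smallest p in each role and for 8 genes named by function; of other lists, for up to 4 genes with the smallest p and 8 named genes, some of which are not reported here. Acacb, Cpt1c and Ucp2 were named after their values were seen. Alternatives were DESeq2 1.42.0 (size factors, Wald test), upper-quartile factors, TMM without the 30 most abundant genes, other filters, limma 3.58.1 (voom), a replicate block, leaving out each library, and, chosen after seeing the data, library totals. Figures used matplotlib 3.10.9.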

Additional observations from a re-analysis of the deposited data

Results flagged for a closer look

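In 68 comparisons of a liver with the others of its group (34 genes in 2 groups), 4 single values stood apart by Dixon's test at the 95% level, and chance flags about 1 in 20 such groups. Acsl5 was 328.5 CPM in OGT-deficient 4, against a next highest of 269.9 CPM, and its difference passed the threshold without that liver (log2 fold change -0.36, adjusted p = 0.0115). Acsm1 was 425.1 CPM in OGT-deficient 3, against a next highest of 398.3 CPM, and the estimate without it was -0.17 (adjusted p = 0.113). In WT livers, Acsm1 was 402.3 CPM in WT 1, against a next lowest of 450.3 CPM, with an estimate of -0.19 without it (adjusted p = 0.0580). Acsl3 was 34.9 CPM in WT 4, against a next highest of 23.3 CPM, with an estimate of 0.051 without it (adjusted p = 0.659).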

How the results depend on the processing

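Over the alternatives run with scaling other than library totals, 6 to 8 of the 34 genes were called higher and 15 to 20 lower. Leaving out 1 library gave 6 to 8 higher and 17 to 20 lower, with medians of -0.35 to -0.22. Of 612 comparisons of a gene of the set with an alternative, 568 kept direction and call, 32 lost the call, 7 gained one and 5 reversed, all 5 under library totals (a change of sign counted only where either estimate was called).

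Upper-quartile factors moved the median of the 34 to -0.14, and library totals moved it to 0.075, with 7372 genes of the whole table higher and 2014 lower (4461 and 4153 with TMM). Acads, Hadha, Hadhb and Echs1 lost their calls with upper-quartile factors. By construction each factor shifts every gene alike. With library totals the estimates of Acsm1 (0.19), Acsm5 (0.29), Hadha (0.11), Hadhb (0.071) and Echs1 (0.080) lay above 0, against values below 0 with TMM. The same change of sign was found for Acsl3 (0.23), Acsl5 (0.087), Cpt1a (0.13), Acadm (0.26) and Etfa (0.17), which were called with neither scaling.

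Libraries of the same number did not deviate together (correlations 0.0461, -0.123, 0.0296 and 0.142), so the numbers do not pair them. With the replicate block over replicates 1 to 4, 6 of the 34 were higher and 16 lower, and 4108 genes of all were higher and 3751 lower. That fit also lacks WT 5, so 2 choices changed together. In it Acsl4, Acad10, Hadha, Hadhb, Echs1 and Ppargc1a were not called, with log2 fold changes of 0.32, 0.21, -0.22, -0.24, -0.24 and 0.50. Leaving out WT 5 with no block already lost the calls of Acad10, Hadhb, Echs1 and Ppargc1a (adjusted p = 0.0550, 0.0803, 0.0591 and 0.0517). Depth limits Acss1 most among the 34, since it rests on the fewest reads.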
